A study of Mus musculus with 4 samples.

Results

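The mitochondrially encoded genes were taken as every gene row on the mitochondrial chromosome of the deposited count tables, which gave 37 of 50600 gene rows. By their biotypes in GENCODE M21 they comprised 13 mRNAs, 2 ribosomal RNAs (rRNAs) and 22 transfer RNAs (tRNAs), of which 28 lay on the plus strand and 9 on the minus strand. The cells were Mus musculus primary cells of strain C57BL/6NJ, labelled T-helper 17, a CD4 T cell type known for making interleukin 17. The 4 libraries, biological replicates 1 to 4, formed 1 group with no control, each with its own biosample record and all with 1 shared donor record. Neither age nor sex is given, a protocol for CD4 T cell differentiation is linked, and the assay is called total RNA-seq although the linked library protocol is titled poly(A)+. The labels do not say that the replicates came from separate animals or cultures, so every p-value below rests on these 4 libraries, whose spread may be technical.

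The libraries held 29041979 to 48808978 counted fragments. CD4 T cell genes were high, with Cd4 at 969 ± 34.2 TPM and Trac at 3069 ± 37.3 TPM (SD, n = 4). TPM is a level per base of gene length, scaled to the same total in each library. Of 4 genes that mark T-helper 17 cells, Il17a was at 4.22 TPM, Il17f at 9.83 TPM, Ccr6 at 0.229 TPM and Il23r at 0.0728 TPM. The naive T cell genes Tcf7 and Ccr7 were at 3034 TPM and 865 TPM, and the headers tag every alignment with hour zero. The defining T-helper 17 markers were thus at or near the floor for Ccr6 and Il23r and low for the cytokines, and the cells are called here by their label only. The haemoglobin genes Hba-a1 and Hbb-bs had 0 counts and 1 count. The 3 B cell markers were at 0.0179 to 1.37 TPM and the 3 myeloid markers at 0.0115 to 1.61 TPM. Of 2 CD8 T cell markers, Cd8a was at 0.150 TPM and Cd8b1 at 42.9 ± 2.88 TPM, measured in every library.

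The mitochondrial genome is a small circular DNA present in many copies per cell. Both of its strands are transcribed as long RNAs by the nuclear-encoded polymerase Polrmt. These are cut at the tRNAs that sit between the other genes, which frees the mRNAs and rRNAs. The mRNAs encode core subunits of respiratory complexes I, III and IV and of ATP synthase, while every other protein of these complexes, and every protein that copies, reads or translates the genome, comes from the nucleus. Fragments of mitochondrial DNA have also been inserted into nuclear chromosomes during evolution, where they are annotated as pseudogenes. Of the 13 mRNAs here, 9 began with ATG and 4 with other start codons that mitochondria use, and 3, mt-Co3, mt-Nd4 and mt-Cytb, ended in a lone T, which the poly(A) tail is known to complete to a stop codon.

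Nuclear copies can matter for these counts because, per the file headers, no option for fragments aligned to several places was set. A fragment that the aligner reported both on a mitochondrial gene and on a nuclear copy would then not be counted. Whether this happened was not tested. The sequences of the members were therefore compared with all other GENCODE M21 transcripts on the mm10 build. The first pair shows the start of mt-Co2, which encodes cytochrome c oxidase subunit 2, and its chromosome 1 copy Gm28661, which were identical over these bases and over all 681 aligned bases.
mt-Co2 (chrM:7013-7162, plus strand): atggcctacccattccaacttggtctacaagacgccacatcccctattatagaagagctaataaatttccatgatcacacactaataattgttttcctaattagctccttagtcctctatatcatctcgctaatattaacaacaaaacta
Gm28661 (chr1:24615416-24615565, minus strand): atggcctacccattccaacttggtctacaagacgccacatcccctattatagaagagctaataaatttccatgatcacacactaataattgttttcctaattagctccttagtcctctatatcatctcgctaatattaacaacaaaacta

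The second pair shows mt-Nd3, which encodes a complex I subunit, and its chromosome 1 copy Gm28438. They differed at 1 aligned base, T3C, counted from 1 at the first base of the mitochondrial gene and shown in capitals.
mt-Nd3 (chrM:9459-9578, plus strand): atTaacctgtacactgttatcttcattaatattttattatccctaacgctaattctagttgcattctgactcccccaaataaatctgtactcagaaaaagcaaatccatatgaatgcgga
Gm28438 (chr1:24613000-24613119, minus strand): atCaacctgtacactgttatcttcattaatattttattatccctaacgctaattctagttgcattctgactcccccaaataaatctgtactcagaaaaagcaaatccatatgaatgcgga

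The third pair shows a more distant copy. The start of mt-Cytb, which encodes the cytochrome b subunit of complex III, differed from Gm11410 on chromosome 4 at 10 of these 150 bases, in capitals, and at 81 of 1142 aligned bases in all.
mt-Cytb (chrM:14146-14295, plus strand): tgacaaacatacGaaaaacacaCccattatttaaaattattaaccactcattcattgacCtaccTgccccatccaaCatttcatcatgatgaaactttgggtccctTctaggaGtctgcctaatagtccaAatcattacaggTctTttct
Gm11410 (chr4:80003990-80004139, plus strand): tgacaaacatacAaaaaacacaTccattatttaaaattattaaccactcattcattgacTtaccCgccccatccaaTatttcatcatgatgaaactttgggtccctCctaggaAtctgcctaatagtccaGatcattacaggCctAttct

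The 7 copies on chromosome 1 lay in the same order as the mitochondrial genes. They matched bases 6390 to 11042 of the mitochondrial genome, a run of 4653 bases, and lay between 24611535 and 24616188 of chromosome 1, on the minus strand. Over the 4140 bases that annotated copies covered, there were 2 mismatches, T3C in mt-Nd3 and A1066T in mt-Co1. Bases between the annotated copies were not compared, since transcript sequences were used. The run began inside mt-Co1, the gene of cytochrome c oxidase subunit 1, and ended inside mt-Nd4, a complex I gene. The 2 borders are shown with the bases that have a counterpart on chromosome 1 in capitals.
mt-Co1 (chrM:6330-6449, plus strand): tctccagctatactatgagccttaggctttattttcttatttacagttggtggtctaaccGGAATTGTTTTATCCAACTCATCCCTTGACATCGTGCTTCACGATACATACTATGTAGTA
mt-Nd4 (chrM:10983-11102, plus strand): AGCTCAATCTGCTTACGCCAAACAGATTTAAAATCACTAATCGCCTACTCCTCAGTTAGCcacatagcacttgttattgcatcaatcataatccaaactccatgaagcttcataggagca

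Members inside this run held very few counts. Of the 37 members, 11 lay wholly inside it, namely 6 mRNAs and 5 tRNAs, and these 11 held 15 counts in all 4 libraries together. The 6 mRNAs have a summed length of 2998 bases and held 13 of the 3152282 counts of all mRNA members. The 24 members outside the run held 1443783 counts, and mt-Co1 and mt-Nd4, which cross its borders, held 1754663.

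The 6 mRNAs inside the run encode subunits of complexes I and IV and of ATP synthase. mt-Co2 and mt-Nd3 had 0 counts in every library, which allows up to 3 counts, or 0.309 to 0.527 TPM for mt-Co2 and 0.606 to 1.03 TPM for mt-Nd3. mt-Nd4l, a complex I gene, had 1 count, in replicate 3, and mt-Atp8, an ATP synthase gene, had 1 count, in replicate 2. mt-Atp6, the gene of the ATP synthase subunit that forms part of the proton channel, had 2 counts in replicate 2 and 3 in replicate 4. mt-Co3, the third cytochrome c oxidase gene, had 3 counts in replicate 3 and 3 in replicate 4. No library held more than 3 counts of any of the 6, so their levels could not be ordered. These limits hold for counting error alone, and fragments left out at alignment or counting are not in them.

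**Figure D1:**
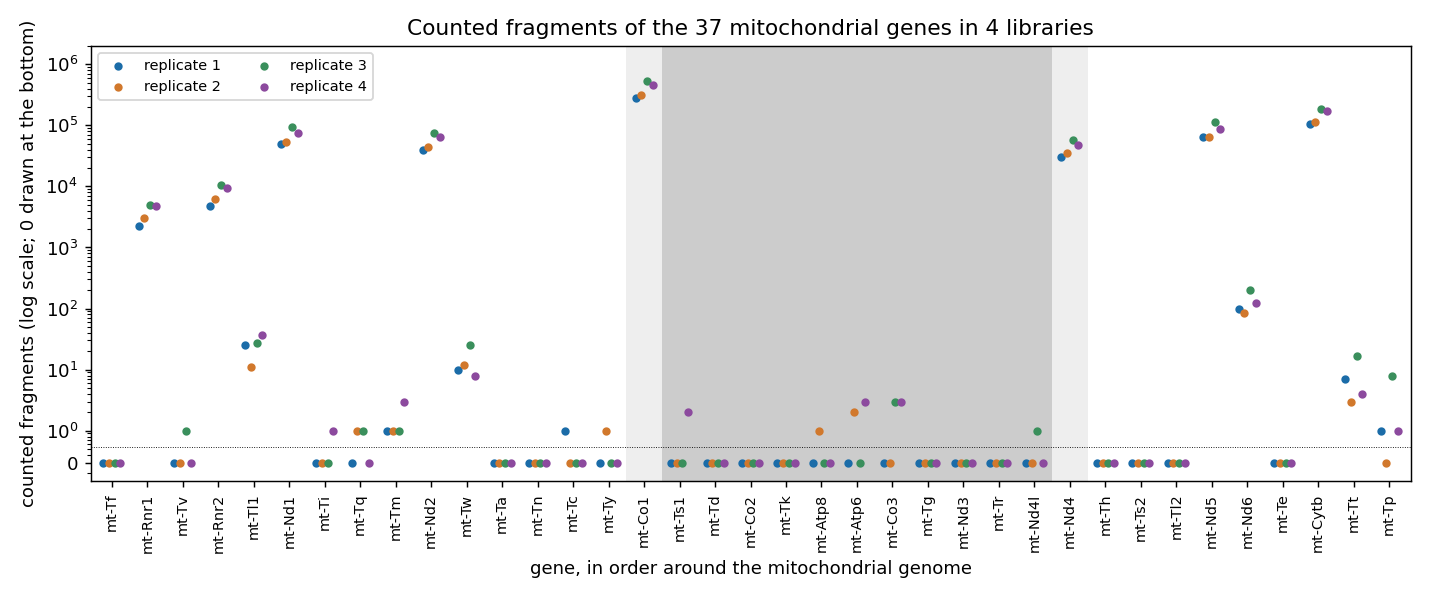
Counted fragments (log scale, 0 at the bottom) of the 37 mitochondrial genes in order around the genome, 1 point per library. Dark grey marks the 11 genes wholly inside the run copied on chromosome 1, which hold 15 counts in all, and light grey marks mt-Co1 and mt-Nd4, which cross its borders.

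The share of each gene that could be told from nuclear transcripts was measured in windows of 100 bases. Every such window was looked up letter for letter, on both strands, in the nuclear transcripts. In mt-Co2, mt-Atp6, mt-Co3, mt-Nd3 and mt-Nd4l, 97.6% to 99.9% of windows were found there. The share was 60.8% in mt-Nd4, 30.8% in mt-Co1 and 3.19% in mt-Nd2, and no window of mt-Nd1, mt-Nd5, mt-Nd6, mt-Cytb, mt-Rnr1 or mt-Rnr2 was found. mt-Atp8 was at 0% as well, with 1 count, and it lies in the run at bases 7766 to 7969, of which the annotated copies cover only those from 7927 on, in Gm10925. That stretch is shorter than a window, so the windows could not show a copy of mt-Atp8, and a genome sequence was not used here. How many fragments were left out of each gene was not tested, since only counted fragments are deposited.

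**Figure D2:**
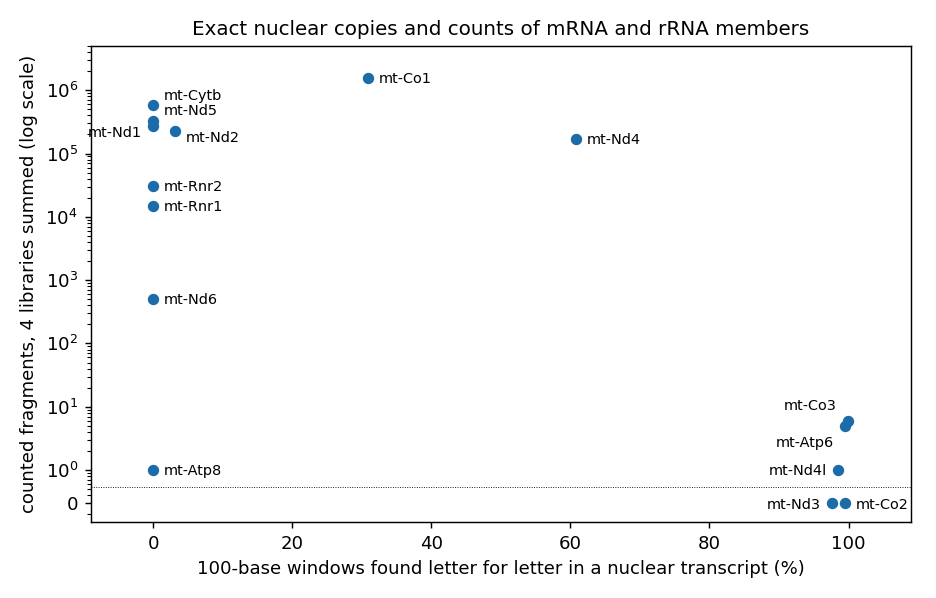
Percentage of 100-base windows found letter for letter in a nuclear transcript (x axis) and summed counts of 4 libraries (y axis, log scale, 0 at the bottom) for the 13 mRNAs and 2 rRNAs, 1 point per gene. The 5 genes at 97.6% or more have 0 to 6 counts, and mt-Atp8 has 1 count at 0%.

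The nuclear copies held few counts themselves. The 7 copies in the run had 88, 115, 175 and 148 counts in replicates 1 to 4, which is 526 in all. Gm28438, the copy of mt-Nd3, had 28, 33, 70 and 43 counts, and Gm10925, the copy of mt-Atp6, had 17, 28, 40 and 35. Gm10925 matched mt-Atp6 over its whole annotated length without a mismatch. Gm28661, Gm28437, Gm28439 and Gm10222 also matched mitochondrial sequence over their whole annotated length without a mismatch. These rows therefore hold no base that differs from the mitochondrial genes and no unshared part, yet they held counts. Gm28438 and Gm29216 do hold a differing base, from which a count can come. The source of the counts on the copies was not tested. The copy with most counts was Gm13340 on chromosome 2, a full-length match to mt-Co1 with 37 mismatches in 1545 bases, at 61, 63, 90 and 60 counts. Its start differed from mt-Co1 at C54A, A60G and G87A, in capitals.
mt-Co1 (chrM:5328-5477, plus strand): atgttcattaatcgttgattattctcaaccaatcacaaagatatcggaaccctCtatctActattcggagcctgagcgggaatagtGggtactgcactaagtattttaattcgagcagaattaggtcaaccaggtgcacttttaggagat
Gm13340 (chr2:22589498-22589647, minus strand): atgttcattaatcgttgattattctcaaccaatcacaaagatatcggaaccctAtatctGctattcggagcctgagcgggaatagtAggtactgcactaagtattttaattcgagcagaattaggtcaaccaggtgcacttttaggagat

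Fragments counted on the 37 members made up 1.99%, 1.81%, 2.20% and 2.01% of all counted fragments in replicates 1 to 4. Replicate 2 was lowest and replicate 3 highest, and the mean was 2.00% ± 0.157 (SD, n = 4). Wilson intervals at 95% did not overlap between libraries, at 1.81% to 1.82% in replicate 2 and 2.19% to 2.20% in replicate 3, and cover counting error only. The mRNAs took 98.6% ± 0.143 of mitochondrial counts, the rRNAs 1.42% ± 0.144 and the tRNAs 0.00649% ± 0.00147. These shares are of counted fragments, so the genes inside the copied run enter them close to zero. In bulk RNA, fewer mitochondrial genomes per cell and less RNA per genome cannot be told apart, nor can fewer cells of a type and less RNA per cell.

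Levels per base were then compared among the 9 mRNAs and rRNAs with more than 3 counts in every library. Of these, 5 were complex I genes. mt-Co1 was at 21793, 20478, 24145 and 22956 TPM in replicates 1 to 4. It had the highest mean TPM of all gene rows, nuclear genes included, at 22343 ± 1571, and it alone held 49.4% ± 0.603 of mitochondrial counts. mt-Cytb followed at 11088, 10131, 11382 and 11415 TPM, a mean of 11004 ± 600.1, and held 18.0% ± 0.529 of mitochondrial counts. In each library mt-Co1 stood above mt-Cytb, with a log2 ratio of 1.02 ± 0.05.

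The complex I genes came next. mt-Nd1, which encodes a subunit of the membrane arm close to where ubiquinone binds, was at 6169, 5601, 6905 and 6038 TPM. mt-Nd2 was at 4654, 4246, 5091 and 4748 TPM, mt-Nd5 at 4186, 3510, 4414 and 3684 TPM, and mt-Nd4 at 2656, 2567, 2916 and 2719 TPM. These 3 encode the antiporter-like subunits of the membrane arm. By share of mitochondrial counts, which also follows gene length, mt-Nd5 came first of the complex I genes, at 10.3% ± 0.686, before mt-Nd1 at 8.46% ± 0.253, mt-Nd2 at 6.96% ± 0.0465 and mt-Nd4 at 5.36% ± 0.119. The ranges of mt-Nd2 and mt-Nd5 overlapped across libraries, but within each library mt-Nd2 was higher, with a log2 ratio of 0.25 ± 0.09. mt-Nd1 over mt-Nd2 was at 0.40 ± 0.04 and mt-Nd5 over mt-Nd4 at 0.54 ± 0.11, each above zero in 4 of 4 libraries.

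The order of the 9 members was the same in all 4 libraries. It changed when only the bases outside the copied run were taken as the length of mt-Co1 and mt-Nd4, a setting chosen after the data were seen. The scaling total of each library was kept at full gene lengths, so values on this scale are not TPM as defined above. There mt-Co1 was at 32504 ± 2285 and mt-Nd4 at 7450 ± 406. This moved mt-Nd4 from place 6 to place 3, above mt-Nd1, mt-Nd2 and mt-Nd5. The place of mt-Nd4 among the complex I genes therefore depends on how the copied bases are treated.

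The rRNAs, which form the cores of the mitochondrial ribosome, were far lower than these mRNAs. mt-Rnr2, the 16S rRNA, was at 362, 402, 467 and 459 TPM, and mt-Rnr1, the 12S rRNA, was at 281, 317, 362 and 393 TPM. Replicate 1 was lowest for both. mt-Nd4 exceeded mt-Rnr2 by a log2 ratio of 2.69 ± 0.13, and mt-Rnr2 exceeded mt-Rnr1 by 0.32 ± 0.07, in 4 of 4 libraries. In cells at large the mitochondrial rRNAs are known to be more abundant than the mRNAs. The linked library protocol is titled poly(A)+, whether that or another step bears on the rRNA counts was not tested, and the rRNA values are levels in these libraries only.

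**Figure D3:**
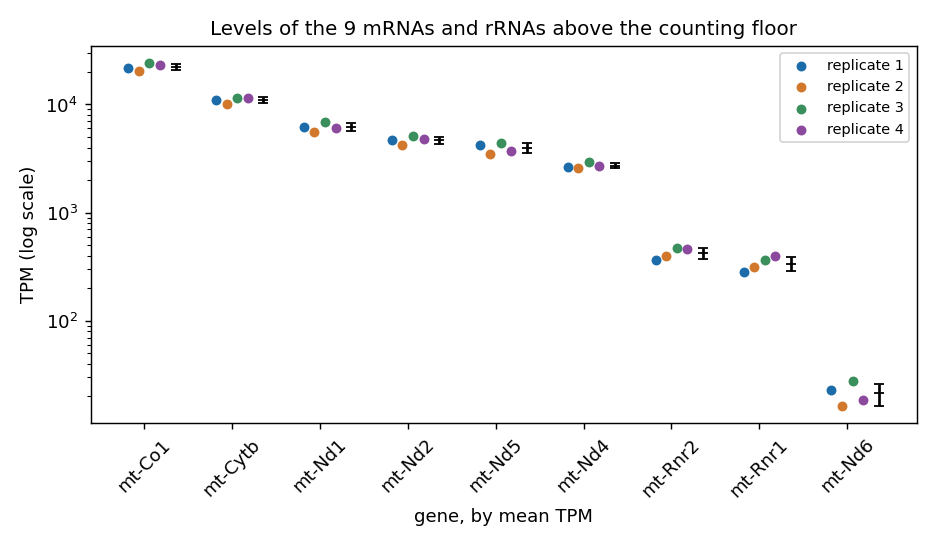
TPM (log scale) of the 9 mRNAs and rRNAs with more than 3 counts in every library, 1 point per library, with the mean and SD (n = 4) in black at the right of each gene. The order from mt-Co1 to mt-Nd6 is the same in all 4 libraries.

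mt-Nd6, a complex I gene, is the only mRNA on the minus strand, where it shares some bases with the end of mt-Nd5 on the plus strand. Its mRNA is known, in human cells, to lack the poly(A) tail that the other mitochondrial mRNAs carry. The counting was strand-specific, per the file headers. The first 120 bases of each gene are shown with G in capitals, because the strands differ in G content.
mt-Nd6 (chrM:13951-14070, minus strand): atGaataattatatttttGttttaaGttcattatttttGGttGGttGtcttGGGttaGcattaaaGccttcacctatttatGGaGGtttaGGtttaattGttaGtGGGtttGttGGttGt
mt-Nd5 (chrM:11742-11861, plus strand): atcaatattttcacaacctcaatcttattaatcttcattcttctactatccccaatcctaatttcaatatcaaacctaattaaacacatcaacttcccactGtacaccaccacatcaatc

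mt-Nd6 held 28.1% G and 5.97% C over its length. The 12 plus strand mRNAs held 5.88% G in mt-Atp8 to 16.1% G in mt-Co1, and 22.1% to 30.0% C. mt-Nd6 was the lowest of the 9 members, at 22.9, 16.3, 27.5 and 18.5 TPM and 99, 84, 203 and 124 counts in replicates 1 to 4. It stood below mt-Nd5 by a log2 ratio of -7.55 ± 0.18, which is 187-fold, and below mt-Cytb by -9.03 ± 0.28, or 524-fold, in 4 of 4 libraries. With 200 bases taken off gene lengths, these log2 ratios were -7.02 and -8.61, so the folds depend on how length is treated. The whole minus strand, with mt-Nd6 and 8 tRNAs, held 0.0162% ± 0.003 of mitochondrial counts.

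Pairs of members were compared by flipping the signs of their 4 log2 TPM ratios (pseudocount 0.1) in an exact two-sided permutation test. Its smallest possible p is 2 of 16 sign patterns, so no pair could pass 0.05. Of 8 pairs, 6 reached that smallest p, with a Benjamini-Hochberg adjusted p of 0.167 in the exact test. They were mt-Rnr2 over mt-Rnr1, mt-Nd6 against mt-Nd5 and against mt-Cytb, mt-Nd2 against mt-Nd1, mt-Co1 over mt-Co2 and mt-Nd4 over mt-Nd4l. Against a floor of 3 counts per library, mt-Co1 was at least 41390-fold higher than mt-Co2 and mt-Nd4 at least 2190-fold higher than mt-Nd4l, in each library. Those 2 ratios set a gene with unshared bases against one inside the copied run. They are ratios of counted fragments, and whether the copies bear on them was not tested. For mt-Co3 over mt-Co2 and mt-Atp6 over mt-Atp8 the exact test gave p = 0.5 and p = 1, and no fold is given because both members of each pair were at or under the floor.

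The 22 tRNA genes, 59 to 75 bases long, held 210 counts in all, and 202 of these were on 5 genes. The 3 with most counts are shown whole.
mt-Tl1 (chrM:2676-2750, plus strand): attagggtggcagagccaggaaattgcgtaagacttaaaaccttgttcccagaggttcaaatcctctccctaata
mt-Tw (chrM:4950-5016, plus strand): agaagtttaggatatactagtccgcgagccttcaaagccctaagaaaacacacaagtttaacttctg
mt-Tt (chrM:15289-15355, plus strand): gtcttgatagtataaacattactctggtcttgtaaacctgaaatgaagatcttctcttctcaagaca

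mt-Tl1, a leucine tRNA that follows mt-Rnr2 directly, had 25, 11, 27 and 37 counts in replicates 1 to 4. mt-Tw, the tryptophan tRNA after mt-Nd2, had 10, 12, 25 and 8 counts, and mt-Tt, the threonine tRNA after mt-Cytb, had 7, 3, 17 and 4. mt-Tp, the proline tRNA, had 10 counts in all, 8 of them in replicate 3, and mt-Tm, the methionine tRNA, had 6. Only 4 tRNAs were counted in every library. A group of 11 was at 0 in all of them, namely mt-Tf, mt-Ta, mt-Tn, mt-Td, mt-Tk, mt-Tg, mt-Tr, mt-Th, mt-Ts2, mt-Tl2 and mt-Te. Of these 11, 4 lay inside the copied run and 7 outside it, so tRNAs at 0 were found both within and beyond the run. Plus strand tRNAs held 194 counts and minus strand tRNAs 16. Some tRNA genes touch or overlap a neighbour, such as mt-Tw, which begins at base 4950 while mt-Nd2 ends at 4951. Per the file headers, no option for fragments that lie on several genes was set. Whether this or the short length of the tRNAs bears on their counts was not tested, so the counts are not read as RNA levels.

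The mitochondrial mRNAs were then set beside the nuclear genes of the same complexes, level per base against level per base. All 36 nuclear complex I genes reached 1 TPM in every library, with a median of 84.0 TPM, against 45.6% of 21751 nuclear protein-coding genes. The same held for 9 of 9 complex III genes, 11 of 11 complex IV genes and 17 of 17 ATP synthase genes, with medians of 173, 140.1 and 147 TPM. These lists were chosen with earlier results of these data known, so their shares are no test against that background. Complex II, which has no mitochondrially encoded subunit, had 4 of 4 genes at a median of 128 TPM. The highest gene of its own complex was Atp5a1, of the catalytic head of ATP synthase, at 688 ± 25.8 TPM, Cox8a for complex IV at 513 ± 16.7 TPM, Uqcrh for complex III at 416 ± 29.4 TPM, Ndufa6 for complex I at 296 ± 27.7 TPM and Sdha for complex II at 253 ± 5.76 TPM.

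By TPM, measured members stood well above these nuclear partners, apart from mt-Nd6 and those inside the run. The ratios rest on the deposited lengths, which span all counted exons of a gene, such as 5628 bases for Ndufb2 at 9.49 TPM. A transcript shorter than that length gets a lower TPM, and how far this raises the ratios was not tested. mt-Co1 was at 160.4 ± 18.2 times the median of the nuclear complex IV genes and above 11 of 11. mt-Cytb was at 63.8 ± 5.83 times the complex III median and above 9 of 9. mt-Nd1, mt-Nd2, mt-Nd5 and mt-Nd4 were at 73.6 ± 7.55, 55.8 ± 5.71, 46.9 ± 4.56 and 32.4 ± 2.84 times the complex I median, each above 36 of 36. mt-Nd6 was at 0.253 ± 0.0564 times that median and above 5 of 36. For complex V no comparison could be made, since mt-Atp6 and mt-Atp8, both inside the copied run, were at or under the floor.

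**Figure D4:**
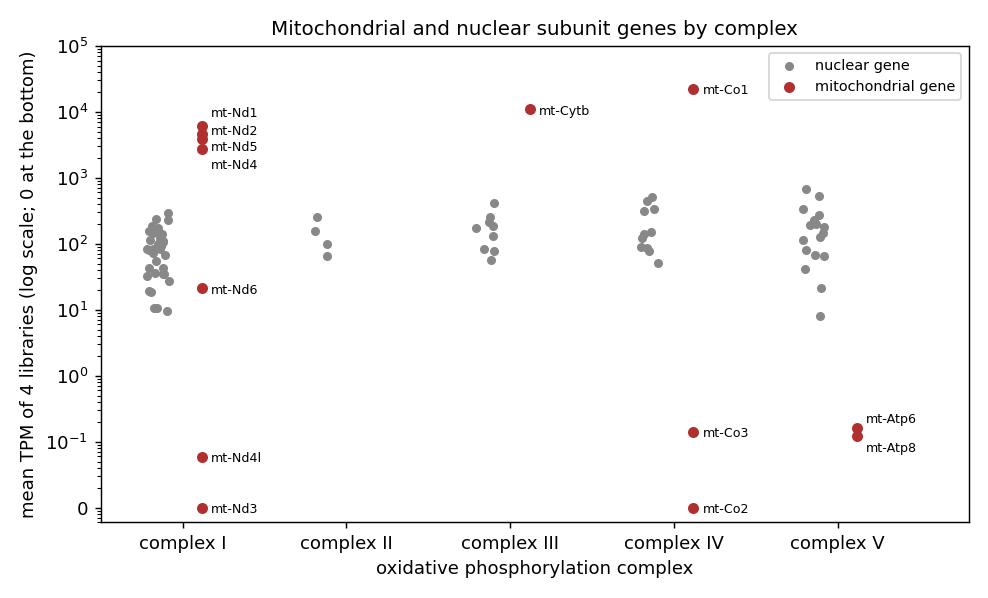
Mean TPM of 4 libraries (log scale, 0 at the bottom) for nuclear (grey) and mitochondrial (red) subunit genes of the 5 oxidative phosphorylation complexes, 1 point per gene. mt-Co1, mt-Cytb, mt-Nd1, mt-Nd2, mt-Nd5 and mt-Nd4 lie above every nuclear gene of their complex, and the genes inside the copied run lie at the bottom.

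Genes that serve the mitochondrial genome were also present, with lower list medians than the complex subunits. Single genes overlapped, with the ribosomal protein gene Mrpl24 at 229 TPM and the complex I gene Ndufb2 at 9.49 TPM. Of 246 nuclear partner genes, the subunits included, 244 reached 1 TPM in every library. All 9 transcription genes did so, with a median of 18.6 TPM, among them Tfam, which packages the genome and starts transcription, at 55 ± 2.89 TPM, Polrmt at 52.0 ± 5.95 TPM and Tfb2m, the initiation factor that opens the promoter, at 18.6 ± 1.21 TPM. Of 10 replication genes 9 did, led by the polymerase gene Polg at 83.6 ± 5.96 TPM, while the nuclease gene Dna2, named after its values were seen, was at 0.831 TPM. Of 8 biogenesis regulators 7 did, and Ppargc1a, a coactivator that drives mitochondrial biogenesis in muscle and brown fat, was at 0.0624 TPM with 21 counts in all.

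All 21 genes of RNA processing and modification reached 1 TPM in every library, with a median of 26.4 TPM. They include the enzymes that cut tRNAs out of the long transcripts, with Trmt10c, of the enzyme that cuts their 5′ ends, at 47.8 ± 2.50 TPM and Elac2, which cuts their 3′ ends, at 59.7 ± 4.67 TPM. All 13 stability and decay genes did so as well, with Lrpprc, which binds and stabilises mitochondrial mRNAs, at 38.4 ± 1.80 TPM and its partner Slirp at 7.93 ± 0.708 TPM. Mtpap, the mitochondrial poly(A) polymerase, was at 57.3 ± 2.84 TPM, and Pnpt1, which degrades mitochondrial RNA, at 59.5 ± 2.45 TPM. All 78 mitochondrial ribosomal protein genes, 19 aminoacyl-tRNA synthetase genes and 12 translation factor genes reached 1 TPM, with medians of 40.6, 27.7 and 24.2 TPM. The median over the nuclear protein-coding genes that reached 1 TPM was 34.2 TPM.

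Spread between the libraries was measured by fitting all genes in edgeR, with a biological coefficient of variation of 9.80%. The test called 24 of 12464 tested genes, or 0.193%, more variable than the trend of genes of like abundance at an adjusted p under 0.05. Of the 37 members 10 passed the filter on low counts, the 9 above and mt-Tl1, and 0 were called. At an unadjusted p under 0.05 in this edgeR test there were 3 of these 10, mt-Rnr1, mt-Rnr2 and mt-Nd5, against 665 of all 12464 genes tested. Their quasi-likelihood spread was 8.92, 7.04 and 4.54 times the trend, with edgeR adjusted p of 0.539, 0.68 and 0.92. The median over the 10 members was 2.76 times the trend, against 0.871 over all genes tested. No member was called with DESeq2 size factors in edgeR, nor as a DESeq2 dispersion outlier, but without the filter on low counts edgeR called mt-Rnr1 and mt-Rnr2 among 349 of 21421 genes.

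The mRNA members shared a direction in replicates 2 and 3 and had mixed signs in replicates 1 and 4. In replicate 2 all 7 lay below their mean over the libraries, by a median of -0.14 on the log2 scale, and in replicate 3 all 7 lay above it, by a median of 0.12. mt-Cytb was highest in replicate 4, at 0.05, and the other 6 were highest in replicate 3. The rRNAs had another order, lowest in replicate 1 at -0.25 for mt-Rnr1 and -0.21 for mt-Rnr2. The medians of the nuclear subunit lists of complexes I to V stayed between -0.04 and 0.06 in every library. Those of the other nuclear partner lists ranged wider, from -0.08 for translation factors in replicate 4 to 0.10 for DNA replication in replicate 1. List medians are also flatter than values of single genes. Since TPM shares 1 total, members that are this abundant are not independent of each other, and what moved them was not tested.

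**Figure D5:**
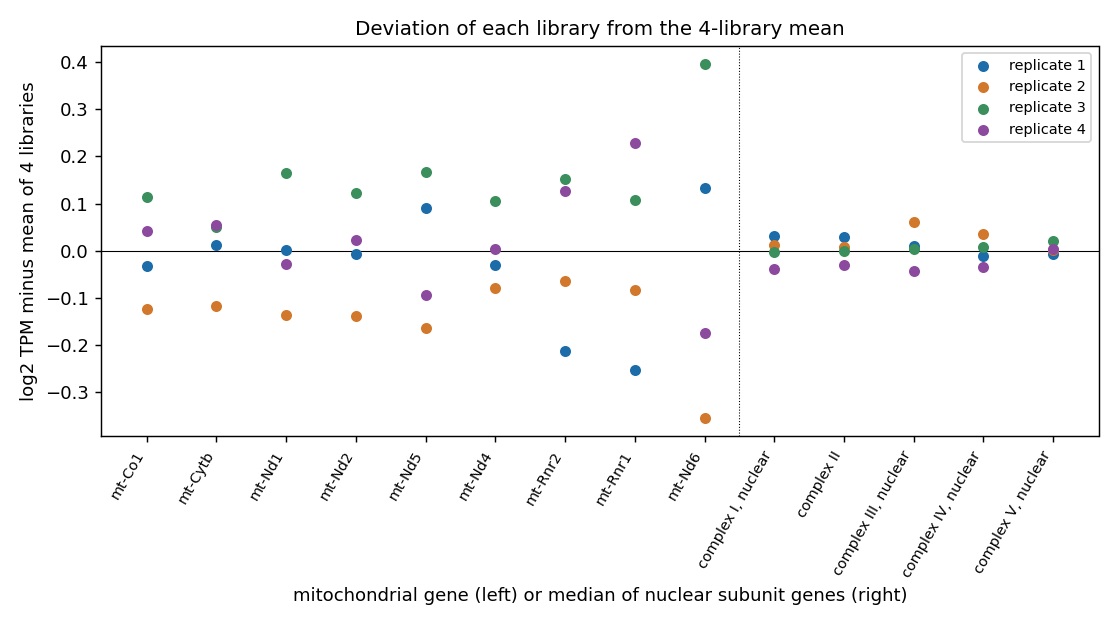
Log2 TPM of each library minus the mean of the 4 libraries, for 9 mitochondrial genes (left) and for the medians of nuclear subunit genes by complex (right). The mRNAs lie below 0 in replicate 2 and above 0 in replicate 3, and the 2 rRNAs are lowest in replicate 1.

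Among the nuclear partner lists the same test called 0 genes in each list. The smallest edgeR adjusted p were 0.0523 for Cdk5rap1, which modifies mitochondrial tRNAs, and 0.0596 for Lars2, the mitochondrial leucyl-tRNA synthetase. Cdk5rap1, named after its values were seen, was at 39.9 TPM in replicate 1 and 15.1 to 16.2 TPM in the others. Lars2 was at 223, 243, 173 and 116 TPM, highest in replicate 2 and lowest in replicate 4.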

How the data were processed

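Per the file headers, the authors ran featureCounts (version 1.4.6-p4) against the exons in GENCODE M13 on the mm10 build, counting pairs with both ends mapped under the reverse-strand setting and with no option for fragments of several places or genes. The aligner's name and version are not given in the sources used here. Deposited values are raw counts. From these and the deposited lengths TPM was computed here. Symbols, biotypes and transcript sequences came from GENCODE M21, which named 50376 of 50600 rows. Nuclear copies were found with BLAST 2.17.0 (95% identity over 100 bases or more) in M21 transcripts, a search added after the data were seen because a genome was not used here. A symbol list made for that case held 10 symbols, of which 7 matched members, Gm10221 and Gm11808 did not, and Gm10924 had no row. Gm11410, under 95%, and the other sequences printed were chosen after the data were seen. Spread was tested with edgeR 4.0.16 (TMM, filterByExpr, robust, intercept only), one-sided, with Benjamini-Hochberg adjustment over all genes that passed. The test was also run on simulated data with large changes in a single library, which cannot show whether it finds the smaller spread of the members. DESeq2 1.42.0 in R 4.3.3 gave an alternative. Members and lists were chosen with earlier results of these data known. Named genes were all mRNAs and rRNAs, the top 5 and zero-count tRNAs, genes from the top 3 of each nuclear list by mean TPM, a panel of 10 nuclear genes, and the top 3 nuclear copies by mean count. Some genes that these lists hold are not reported here.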

Additional observations from a re-analysis of the deposited data

Results flagged for a closer look

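The median TPM of the mitochondrial aminoacyl-tRNA synthetase genes was 24.95 in replicate 3, against 27.9, 27.8 and 28.1 in replicates 1, 2 and 4. By this median 1 library stood far from the others. Its gap to the nearest library was 0.903 of the whole range, above Dixon's 95% critical value for 4 samples. It was the only one of 41 sets of 4 library values examined to do so, and chance gives about 1 in 20. The genes of this list were not lowest in replicate 3 as a set. Their log2 TPM minus each gene's mean over the libraries had medians of 0.083, -0.0036, -0.011 and -0.068 in replicates 1 to 4.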

How the results depend on the processing

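The summed level of the 37 members was 51719 ± 3501 TPM. It was 58898 with nuclear protein-coding genes as the denominator. With only the length outside the copied run for mt-Co1 and mt-Nd4, and scaling totals kept at full lengths, it was 66617. That last alternative was chosen after the data were seen, and neither value is scaled to the same total as TPM. Without the filter on low counts the count of members called for spread was 2 in place of 0. The log2 ratio of mt-Atp6 over mt-Atp8, both at or under the floor, was 0.39, and leaving out each replicate in turn gave -0.195 to 0.713, with a negative value without replicate 4. Of the values under all alternatives, 116 counted as the same, 16 as moved and 1 turned. Shares and levels counted as the same within the SD between libraries, and numbers of genes when near the main number. Pair ratios counted as the same when they kept their sign, so they could move by more than their SD. With 200 bases taken off gene lengths, the log2 ratio of mt-Rnr2 over mt-Rnr1 was 0.18, against 0.32 ± 0.07. With a pseudocount of 1, that of mt-Co1 over mt-Co2 was 14.4, against 17.8 ± 0.10. Total calls over all genes were 30, 13, 7 and 86 without replicates 1, 2, 3 and 4, 5 without robust fitting, 10 at a mean CPM of 5 or more and 122 with DESeq2, with 0 members in each. Nuclear partner genes numbered 240 at 5 TPM and 244 at 1 TPM. No paired analysis was possible because there is 1 group. The pair tests could not pass 0.05 under any setting. The 6 mRNAs inside the run held 3 counts or fewer in each library, too few to show a difference between them.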
